A study of Mus musculus with 10 samples.

Results

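The transcripts described here encode the enzymes that turn pyruvate and fatty acids into reducing equivalents in mitochondria. They comprise the subunits of the pyruvate dehydrogenase complex, most enzymes of the tricarboxylic acid (TCA) cycle with a pair of cytosolic counterparts, and the enzymes of mitochondrial beta-oxidation. The 33 members were given as a list of gene symbols, drawn up by function with earlier results of these data known, and were found among the 19782 genes of the deposited table. All 33 passed the filter on low counts, which left 12505 genes for testing.

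Pyruvate made by glycolysis is oxidised by pyruvate dehydrogenase to acetyl-CoA, which enters the TCA cycle by condensing with oxaloacetate. The cycle passes its electrons to the respiratory chain as NADH and FADH2. Long-chain fatty acids are loaded onto carnitine to cross the inner mitochondrial membrane. They are then shortened in repeated rounds of dehydrogenation, hydration, a further dehydrogenation and thiolysis, and each round releases acetyl-CoA. Microglia, the resident macrophages of the brain, can use glucose, glutamine and fatty acids as fuel.

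Microglia had been sorted as CD45low CD11b+ cells from mouse hippocampus, and RNA was read by Smart-Seq, a full-length cDNA method, from 1 ng of total RNA per library. There were 4 libraries from wild-type mice fed normal diet and 3 from 5xFAD mice fed the same diet, called control here. The other 3 came from 5xFAD mice given PLX3397 at 290 mg/kg in chow from 4 months of age for 1 month and then normal diet for 1 month, and they are called repopulated. PLX3397 inhibits the receptor Csf1r, on which microglia depend, and microglia return once it is withdrawn. The 5xFAD line carries mutant human transgenes of familial Alzheimer's disease driven by the neuronal Thy1 promoter, and both 5xFAD groups share them. The labels give no age for the wild-type and control mice and do not say whether the libraries are separate mice. The p-values therefore measure the spread between these libraries, which may be technical.

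The libraries held 18501136 to 23286814 estimated counts. Levels are given as CPM, scaled by TMM (edgeR's library scaling, which assumes that most genes do not differ), and differences as edgeR log2 fold changes. A gene is called at an edgeR quasi-likelihood p of 0.05 or less after Benjamini-Hochberg adjustment over all 12505 genes. The 10 microglial markers checked were detected in every group and summed to 37679 to 51108 CPM per library. In control against wild type, 5 of these 10 markers were called lower and 1 higher. Among markers of other cells, the neuronal Snap25 (4.10-fold), the oligodendrocyte Mag (2.06-fold) and Cnp (1.5-fold) and the endothelial Pecam1 (2.20-fold) were called lower in control. Flt1, also on the endothelial list, was called 16.1-fold higher (1.45 to 23.5 CPM). That list did not rise as a whole: of 4 markers tested 2 lay above and 2 below 0 (median log2 -0.04). Its marker Cldn5 had no counts in any control library. The border macrophage marker Cd209a was called 8.86-fold lower in repopulated than in control libraries (4.18 and 37.1 CPM). The part of these cells in the members' differences was not tested. The library wild-type 3 stood apart in markers of other cells: neuronal markers summed to 66.5 CPM against 11.2 to 13.5 in the other wild-type libraries, astrocyte markers to 557 against 223 to 315, and erythrocyte markers to 281 against 0.0449 to 20.7. Snap25 was 28.2 CPM in wild-type 3, 5.03 to 6.65 in the other wild-type libraries and 2.26 to 3.83 in control, so wild-type 3 raised its fold change. Control 2 held 328 CPM of neutrophil and monocyte markers, while controls 1 and 3 held 31.3 and 36.7. The wild-type libraries held 51.6 to 259 and the repopulated libraries 78.9 to 176, so controls 1 and 3 were the lowest of all. Y-linked transcripts summed to under 50 CPM in wild-type 2, control 1 and control 3, so control 2 was the control library with such transcripts present. In bulk samples a change in the mix of cells and a change in RNA per cell cannot be told apart.

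Promoter sequences of 4 of the 7 called members are shown first, 2 of transcripts that were higher in control microglia (Echs1, Sucla2) and 2 of transcripts that were lower (Idh2, Acads), because these were the largest called changes of each direction. Each is the 250 bases before the RefSeq transcription start on GRCm38.p6, printed 5′ to 3′ on the gene's strand. Capitals mark the SP motif GGGCGGGG and the NRF1 motif (GCGCA, any base, GCGC), searched on both strands.
Echs1, chr7:140116422-140116671, minus strand: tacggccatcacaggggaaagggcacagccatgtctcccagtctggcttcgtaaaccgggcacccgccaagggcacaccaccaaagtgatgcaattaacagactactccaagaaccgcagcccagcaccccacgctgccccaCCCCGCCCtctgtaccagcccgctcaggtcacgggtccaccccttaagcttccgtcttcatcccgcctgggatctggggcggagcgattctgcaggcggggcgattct
Sucla2, chr14:73552536-73552785, plus strand: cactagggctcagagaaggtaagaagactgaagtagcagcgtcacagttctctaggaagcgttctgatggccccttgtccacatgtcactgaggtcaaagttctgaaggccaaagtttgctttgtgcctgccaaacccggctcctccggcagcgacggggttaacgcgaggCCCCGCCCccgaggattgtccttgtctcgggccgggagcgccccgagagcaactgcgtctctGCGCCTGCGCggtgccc
Idh2, chr7:80115351-80115600, minus strand: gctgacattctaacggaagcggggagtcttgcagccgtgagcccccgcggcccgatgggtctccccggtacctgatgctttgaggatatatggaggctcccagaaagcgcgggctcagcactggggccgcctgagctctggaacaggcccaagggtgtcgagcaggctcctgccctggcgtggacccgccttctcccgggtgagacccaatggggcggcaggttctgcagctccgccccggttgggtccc
Acads, chr5:115119347-115119596, minus strand: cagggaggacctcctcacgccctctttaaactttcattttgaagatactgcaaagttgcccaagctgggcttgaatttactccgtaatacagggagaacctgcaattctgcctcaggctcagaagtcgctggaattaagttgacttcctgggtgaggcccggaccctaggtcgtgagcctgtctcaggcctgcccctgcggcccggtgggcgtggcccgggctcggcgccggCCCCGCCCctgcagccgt
The Echs1, Sucla2 and Acads windows each held the SP motif, and the Sucla2 window held the NRF1 motif as well. The Idh2 window held no match and lay within the annotated span of the gene, which has an earlier start. Over the 31 members with a RefSeq promoter entry, 14 held the SP motif (45.2%), compared with 16.1% of all 32851 promoters. The NRF1 motif was found in 3, those of Sucla2, Etfb and Etfdh (9.68%, against 3.74% of all). The ETS motif CCGGAAGT occurred in the Cpt2 window alone among members (2.88% of all promoters), the nuclear receptor motif AAGGTCA in the Acadm window alone (4.08% of all), and its longer form TCAAGGTCA in none (0.387% of all). A member counted if any of its promoter entries matched. The shares of all promoters count entries, of genes expressed here or not, so the 2 kinds of share are not matched. A match describes letters in the window and was not tested as a binding site.

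In 5xFAD control against wild-type microglia, 7 of 33 members were called, 4 higher (Echs1, Sucla2, Acadl, Dld) and 3 lower (Acads, Idh2, Cpt2). Of all genes tested 18.1% were called, 10.1% higher and 8.04% lower, so the members' count was close to the background. Calls ran both ways within both pathways: the 18 pyruvate dehydrogenase and TCA members held 2 higher and 1 lower, and the 15 beta-oxidation members 2 higher and 2 lower. The median log2 fold change of the members was 0.02, beside -0.06 over all genes tested. No member was called between repopulated and control libraries, where 0.568% of all genes were. Between repopulated and wild-type libraries 1 member, Echs1, was called higher and 1, Idh2, lower, where 4.18% of all genes were called (3.40% higher and 0.784% lower). These comparisons share libraries, so their values are set side by side and not counted against each other.

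**Figure D1:**
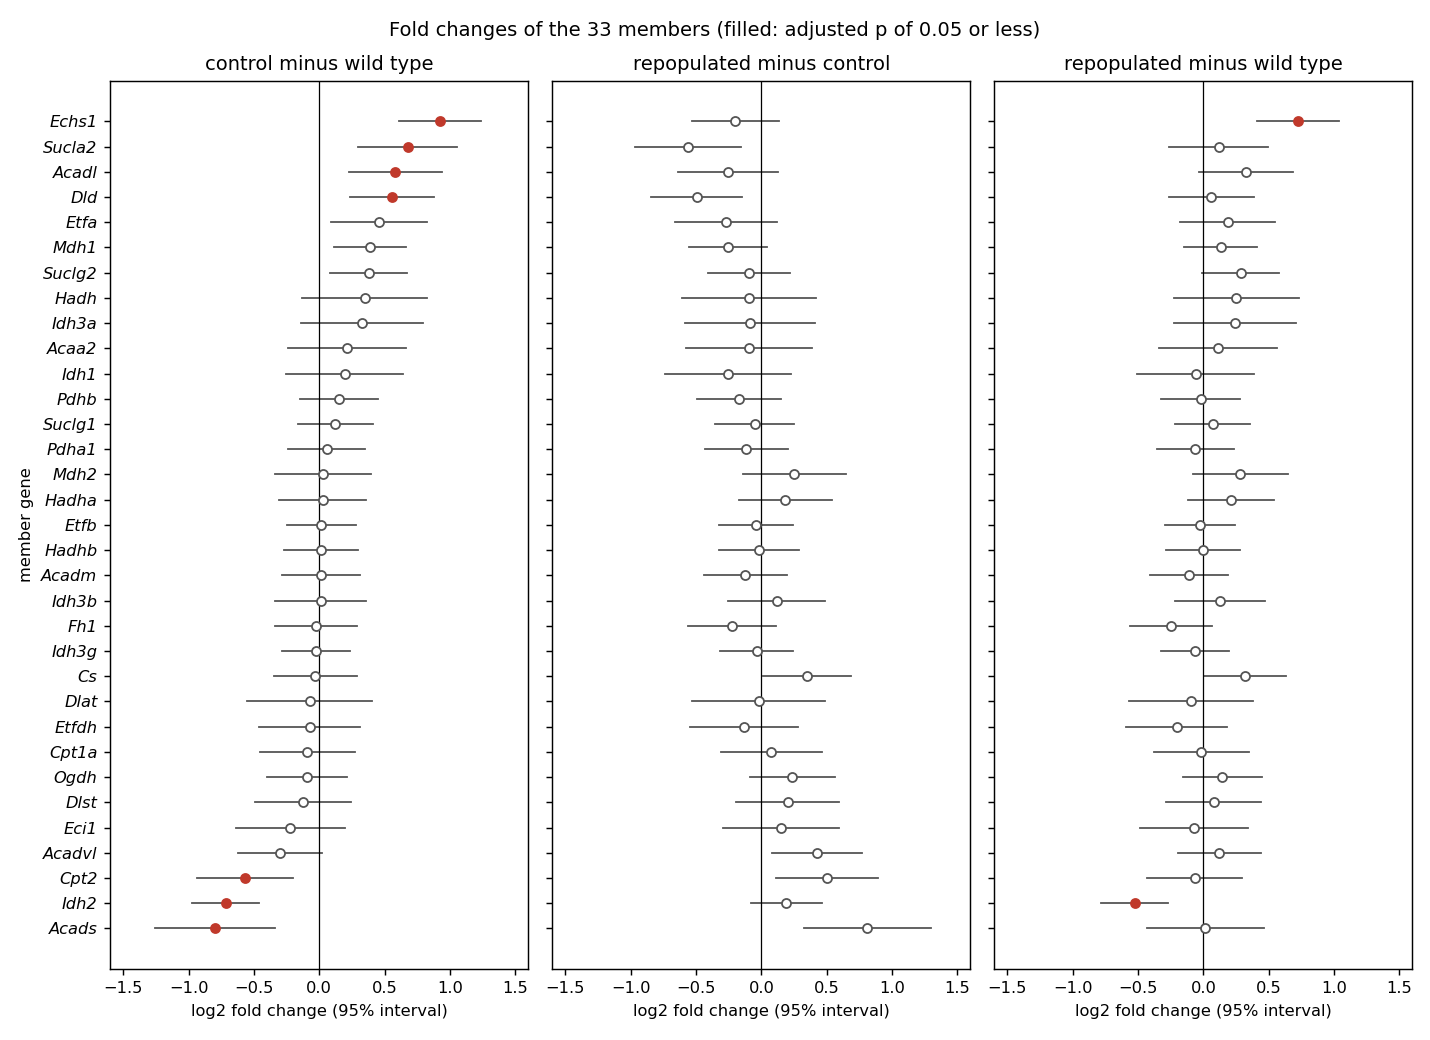
Log2 fold change (x axis, with 95% intervals as bars) of the 33 members (y axis, ordered by control minus wild type) in the 3 comparisons; filled red points are called at an edgeR adjusted p of 0.05 or less. The left panel has 7 filled points from -0.80 (Acads) to 0.92 (Echs1), the middle panel none and the right panel Echs1 and Idh2.

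The pyruvate dehydrogenase complex is built of the E1 subunits Pdha1 and Pdhb, the acetyltransferase Dlat and the dihydrolipoamide dehydrogenase Dld, which the oxoglutarate dehydrogenase complex also uses. Dld was 59.1, 91.1, 81.0 and 77.1 CPM in wild-type libraries 1 to 4, 109.9, 128 and 102 in the controls, and 83.0, 72.1 and 86.1 in the repopulated libraries. All controls lay above all libraries of both other groups. Dld was 1.47-fold higher in control than in wild type (log2 0.56, SE 0.15, edgeR adjusted p = 0.0197). The call was lost without control 1 (edgeR adjusted p = 0.0552) and without control 2 (edgeR adjusted p = 0.088), within a range of 0.00484 to 0.088 over 20 alternatives. Repopulated against control, the log2 difference was -0.49 (95% interval -0.84 to -0.15, edgeR adjusted p = 0.14), which missed the threshold, and DESeq2 gave 0.0472. Pdha1, the catalytic E1 subunit, was 46.9, 51.3, 48.1 and 41.2 CPM in wild type, 46.0, 45.0 and 55.1 in control and 47.5, 39.9 and 47.5 in repopulated libraries. These ranges overlapped, and the log2 interval of control minus wild type was -0.24 to 0.35. Pdhb (132 ± 20.2 CPM in wild type and 146 ± 11.6 in control) and Dlat (17.6 ± 5.62 and 16.7 ± 1.30; SD, n = 4 and 3) were not called.

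The regulators of this complex were not members and formed a list of 14 genes with pyruvate entry and lipoylation, of which 13 were tested, and 1 was called higher and 2 lower in control (10.1% and 8.04% of all genes; median of the list -0.03). Pdp2, a phosphatase that reactivates pyruvate dehydrogenase, fell from 105 ± 12.8 to 58.8 ± 11.2 CPM (1.79-fold lower, edgeR adjusted p = 0.00225), and its call was kept in 20 of 20 alternatives. Pdp1, a separate phosphatase of the same kind, rose 1.71-fold (12.6 ± 2.84 to 21.6 ± 7.67 CPM, edgeR adjusted p = 0.0443). The Pdp1 call stood in 7 of 20 alternatives and was lost without any library other than wild-type 2 or control 1 (largest edgeR adjusted p = 0.278, without control 2). The inhibitory kinase Pdk2 was 1.86-fold lower (6.83 ± 1.84 to 3.66 ± 1.07 CPM, edgeR adjusted p = 0.0476). That call was lost without any library other than wild-type 3 (up to 0.185) and stood in 4 of 20 alternatives. Pdk4 was listed but fell under the filter.

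Citrate synthase, Cs, makes citrate from acetyl-CoA and oxaloacetate. It was 52.6, 43.1, 52.7 and 54.2 CPM in wild type, 50.4, 40.1 and 58.3 in control and 58.9, 66.2 and 64.2 in repopulated libraries. All repopulated libraries lay above all others, but the log2 differences were 0.35 against control (interval 0.01 to 0.69, edgeR adjusted p = 0.257) and 0.32 against wild type (edgeR adjusted p = 0.327), and neither was called. Isocitrate is oxidised in the matrix by an NAD-dependent enzyme (Idh3a, Idh3b, Idh3g) and by the NADP-dependent Idh2, which makes NADPH. Idh2 was 128, 115, 124 and 122 CPM in wild type, 68.2, 84.7 and 70.8 in control and 84.4, 86.6 and 84.4 in repopulated libraries. Every 5xFAD library lay below every wild-type library. Idh2 was 1.64-fold lower in control (log2 -0.72, SE 0.12, edgeR adjusted p = 0.00087) and 1.44-fold lower in repopulated libraries (log2 -0.52, SE 0.12, edgeR adjusted p = 0.0203) than in wild type. Between the 5xFAD groups the log2 difference was 0.19 (interval -0.08 to 0.46, edgeR adjusted p = 0.448). Leaving out any single library kept the call in control against wild type. With wild-type 2, control 1 and control 3 left out together the log2 difference was -0.55 (edgeR adjusted p = 0.0828, range over alternatives 3.78e-07 to 0.0828). That fit has control 2 as its only control, assumed to vary like the other groups. Against wild type, the repopulated call was lost without repopulated 1, 2 or 3 (edgeR adjusted p = 0.107, 0.089 and 0.0894; range 0.000694 to 0.107).

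The NAD-dependent subunits were not called in any comparison. Idh3a, the catalytic subunit, was 29.6, 39.0, 17.8 and 36.0 CPM in wild type, 42.9, 31.7 and 40.8 in control and 34.3, 33.8 and 40.4 in repopulated libraries. Wild-type 3 was the lowest of the 10, and the groups overlapped (control minus wild type 0.33, interval -0.14 to 0.80). Idh3b and Idh3g differed by 0.01 and -0.02 on the log2 scale in the same comparison. The cytosolic counterpart Idh1 was 82.3 ± 28.9 CPM (SD) in wild type, 94.2 ± 8.96 in control and 79.0 ± 12.3 in repopulated libraries, and it had the widest relative spread of all members in wild type (coefficient of variation 35.1%).

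Ogdh and Dlst form the oxoglutarate dehydrogenase complex with Dld. Ogdh was 108, 85.4, 105 and 119.9 CPM in wild type, 103, 84.7 and 106 in control and 112, 129.8 and 106 in repopulated libraries, with overlapping ranges (control minus wild type -0.09, interval -0.40 to 0.21). Dlst was 67.6 ± 15.0, 62.1 ± 10.5 and 71.4 ± 4.55 CPM in the same order. The next enzyme, succinyl-CoA ligase, pairs the shared subunit Suclg1 with Sucla2, the ADP-specific subunit, or Suclg2, the GDP-specific subunit. Sucla2 was 91.2, 122, 107 and 89.6 CPM in wild type, 146, 197 and 149 in control and 117, 81.7 and 135 in repopulated libraries. The controls lay above all other libraries, control 2 farthest. Sucla2 was 1.6-fold higher in control than in wild type (log2 0.68, SE 0.18, edgeR adjusted p = 0.0161). The call was lost without control 2 (edgeR adjusted p = 0.0859, range over alternatives 0.003 to 0.0859). Repopulated minus control was -0.56 on the log2 scale (interval -0.97 to -0.15, edgeR adjusted p = 0.149) and repopulated minus wild type 0.12. Suclg2 was 49.8 ± 6.80 CPM in wild type, 64.8 ± 4.98 in control and 60.7 ± 4.63 in repopulated libraries, and all controls exceeded all wild types, with an edgeR adjusted p of 0.071. Suclg1 differed by 0.12 in control against wild type.

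Fumarase, Fh1, and mitochondrial malate dehydrogenase, Mdh2, close the cycle. Their control minus wild-type log2 differences were -0.02 and 0.03. Mdh1, the cytosolic malate dehydrogenase of the malate-aspartate shuttle, was 135, 175, 148 and 133 CPM in wild type, 206, 188 and 186 in control and 158, 147 and 179.8 in repopulated libraries. All controls lay above all wild types and all repopulated libraries, and the log2 difference of 0.39 in control (SE 0.13) had an edgeR adjusted p of 0.0513, which was under the threshold without wild-type 2 (0.0221) and in 4 of 20 alternatives (0.0208 to 0.275). Among 20 TCA and feeder enzymes outside the list, 17 were tested, and 2 were called higher and none lower in control (10.1% and 8.04% of all genes; median of the list -0.02). Got1, the cytosolic transaminase of the same shuttle, was 18.4 ± 1.48 CPM in wild type, 50.8 ± 1.88 in control and 46.2 ± 1.05 in repopulated libraries. It was 2.75-fold (edgeR adjusted p = 2.41e-06) and 2.51-fold (edgeR adjusted p = 1.08e-05) higher in these groups than in wild type, and was called in 20 of 20 alternatives in both comparisons. Of 9 mitochondrial carriers 1 was called higher and none lower in control, beside the same 10.1% and 8.04% of all genes (median of the list 0.07). It was the phosphate carrier Slc25a3, 160 ± 6.35 to 231 ± 35.7 CPM (1.45-fold higher, edgeR adjusted p = 0.00743, 19 of 20 alternatives).

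Fatty acids enter the matrix through the carnitine palmitoyltransferases. Cpt1a, on the outer membrane and the rate-limiting entry step, was 30.1, 24.2, 38.9 and 29.7 CPM in wild type, 24.7, 31.8 and 29.9 in control and 32.0, 28.7 and 30.5 in repopulated libraries. The ranges overlapped in every comparison (control minus wild type -0.09, interval -0.45 to 0.27). Cpt2, the inner-membrane enzyme that returns the acyl group to coenzyme A, was 20.6, 25.9, 28.1 and 25.6 CPM in wild type, 17.3, 13.8 and 19.6 in control and 23.7, 22.3 and 25.8 in repopulated libraries. All controls lay below all other libraries. Cpt2 fell 1.48-fold in control (log2 -0.57, SE 0.17, edgeR adjusted p = 0.0334). The call stood in 11 of 20 alternatives (edgeR adjusted p from 0.00462 to 0.14). It was lost without wild-type 2 (0.0596), wild-type 4 (0.0732), control 1 (0.0963), control 2 (0.14) or repopulated 1 (0.0524). Repopulated minus control was 0.50 (interval 0.11 to 0.89, edgeR adjusted p = 0.17).

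The acyl-CoA dehydrogenases start each round and differ in the chain length they prefer. In control against wild type the long-chain Acadl was called higher and the short-chain Acads lower. The very long-chain Acadvl was lower without a call (log2 -0.30, interval -0.62 to 0.02, edgeR adjusted p = 0.19). Because that interval includes 0, these values do not settle whether direction followed chain length. Acadl was 22.1, 21.9, 32.4 and 24.6 CPM in wild type, 36.7, 41.6 and 35.2 in control and 34.4, 33.4 and 27.3 in repopulated libraries. All controls lay above all other libraries, though control 3 (35.2 CPM) and repopulated 1 (34.4 CPM) were close. Acadl was 1.5-fold higher in control than in wild type (log2 0.58, SE 0.17, edgeR adjusted p = 0.0256). That call was lost without wild-type 1 (0.0586), wild-type 2 (0.0598), wild-type 4 (0.0619), control 1 (0.0678) or control 2 (0.0973), and stood in 10 of 20 alternatives (0.00318 to 0.143). Acads was 22.2, 18.9, 17.1 and 24.7 CPM in wild type, 11.6, 8.67 and 15.5 in control and 18.4, 23.2 and 21.2 in repopulated libraries. All controls lay below all other libraries. The fall was 1.74-fold (log2 -0.80, SE 0.22, edgeR adjusted p = 0.0193) and was no longer called without wild-type 4 (0.0596), control 1 (0.0752) or control 2 (0.0897), within a range of 0.00551 to 0.0897. Repopulated minus control was 0.81 (interval 0.33 to 1.30, edgeR adjusted p = 0.1), while repopulated minus wild type was 0.01. DESeq2 called the former (adjusted p = 0.0218, range over alternatives 0.0218 to 0.409). Acadvl, the very long-chain enzyme of the inner membrane, was 64.2, 56.7, 56.8 and 58.0 CPM in wild type, 46.8, 37.5 and 59.3 in control and 61.1, 67.8 and 63.7 in repopulated libraries. The repopulated libraries all lay above the controls, but the log2 difference of 0.42 was not called (edgeR adjusted p = 0.184). Acadm, the medium-chain enzyme, differed by 0.01 in control against wild type (interval -0.29 to 0.31).

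The later steps are carried out by the matrix hydratase Echs1, the dehydrogenase Hadh, the thiolase Acaa2, the isomerase Eci1 and the membrane-bound trifunctional enzyme of Hadha and Hadhb. Echs1 was the member with the largest fold change. It was 33.7, 36.4, 34.4 and 27.7 CPM in wild type, 67.7, 51.9 and 68.2 in control and 49.6, 56.2 and 57.8 in repopulated libraries. Every 5xFAD library lay above every wild-type library. Echs1 was 1.89-fold higher in control (log2 0.92, SE 0.15, edgeR adjusted p = 0.000562) and 1.65-fold higher in repopulated libraries (log2 0.72, SE 0.15, edgeR adjusted p = 0.0095) than in wild type. The 5xFAD groups differed by -0.20 (interval -0.53 to 0.14, edgeR adjusted p = 0.529). Leaving out any single library kept the call in control. With wild-type 2, control 1 and control 3 left out together the log2 difference was 0.71 (edgeR adjusted p = 0.0616, range over alternatives 1.64e-07 to 0.0616). That fit has control 2 alone as control, with its spread taken from the other groups. The call in repopulated libraries was lost without repopulated 2 (0.0533) or repopulated 3 (0.0548), with a range of 0.000343 to 0.0628. The span of Echs1 overlaps that of Paox, a polyamine oxidase gene, which was 15.1 ± 2.57 CPM in wild type and 12.5 ± 2.69 in control and was not called. The other 5 enzymes of these steps were not called: Hadha, Hadhb, Hadh, Acaa2 and Eci1 had log2 differences of 0.03, 0.01, 0.35, 0.21 and -0.22 in control against wild type.

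The electron transfer flavoprotein Etfa and Etfb and its dehydrogenase Etfdh pass electrons from the acyl-CoA dehydrogenases to ubiquinone. Etfa was 70.8 ± 13.9 CPM in wild type, 97.1 ± 10.1 in control and 80.6 ± 15.8 in repopulated libraries, and all controls lay above all wild types (log2 0.46, edgeR adjusted p = 0.0789). Etfb and Etfdh differed by 0.02 and -0.07.

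**Figure D2:**
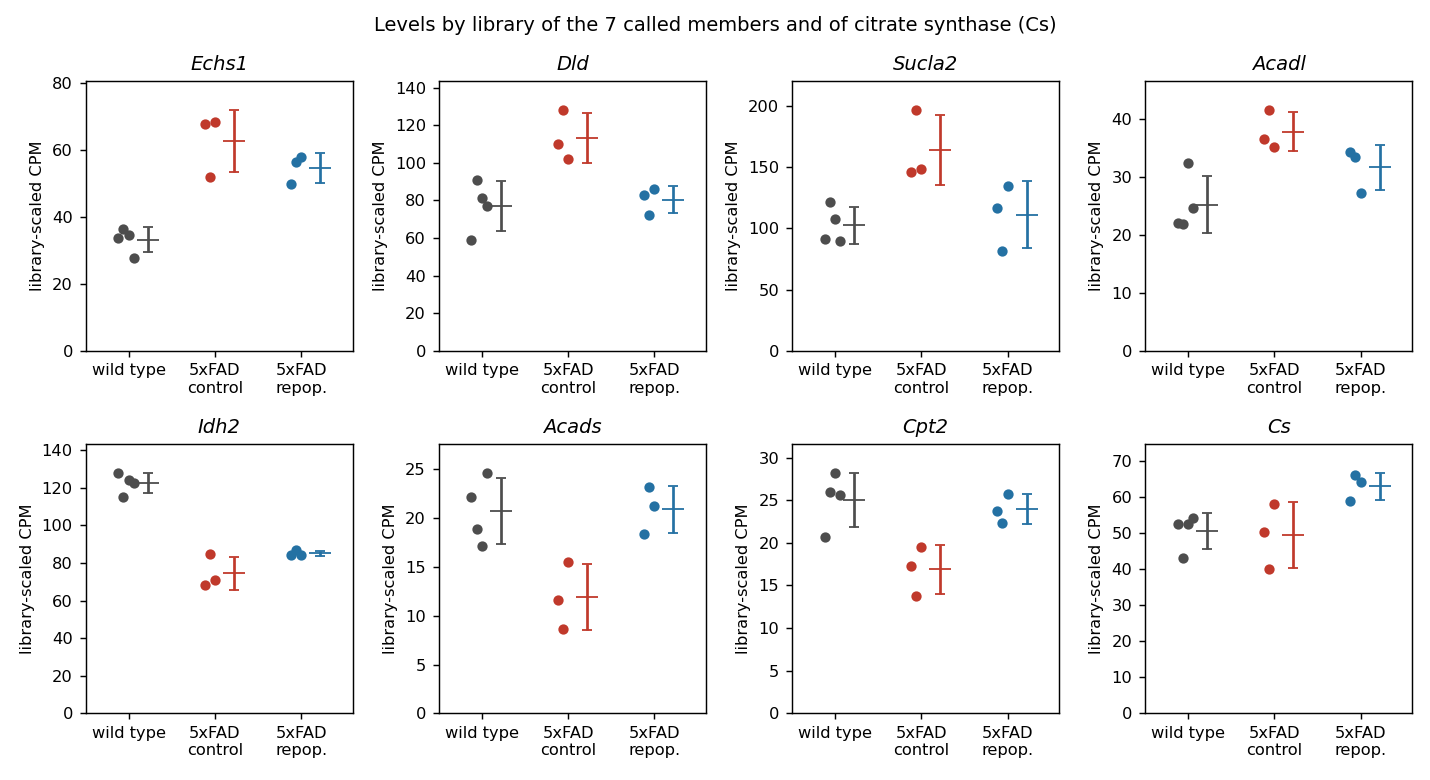
Library-scaled CPM (y axis, starting at 0) of the 7 called members and of Cs in each library (points) of the 3 groups, with the group mean and SD as bars. For Echs1 and Idh2 both 5xFAD groups sit apart from wild type. For Dld, Sucla2, Acads, Cpt2 and, narrowly, Acadl the control libraries sit apart from both other groups. For Cs the repopulated libraries sit highest.

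Members called lower and higher in control sat at different places in GC content. GC content of the longest transcript was 40.6% for Dld, 43.2% for Sucla2, 45.1% for Acadl and 48.1% for Echs1, which were higher, and 52.6% for Cpt2, 55.6% for Idh2 and 59.7% for Acads, which were lower. The longest transcript of a gene need not be the one that gave its counts, and this was not tested. Across the 33 members Spearman's rho of log2 fold change with GC was -0.61 in control against wild type and 0.70 in repopulated against control. The same values over 12133 genes were -0.26 and 0.44. These describe genes within shared libraries, which are not independent. The libraries differed in this respect: over all tested genes rho of the level relative to the other libraries with GC was -0.42 in control 2 and 0.49 in repopulated 2, and -0.20 to 0.28 in the others. With levels adjusted for GC and length in each library, 6 of the 7 calls in control against wild type stood, beside 18.9% of all genes tested. Their log2 differences were 0.89 for Echs1, -0.55 for Idh2, -0.54 for Acads, -0.50 for Cpt2, 0.47 for Sucla2 and 0.37 for Dld. Acadl was then 0.38 (edgeR adjusted p = 0.116). Repopulated minus control became 0.48 for Acads, -0.21 for Dld and -0.32 for Sucla2, all smaller than without the adjustment. Whether GC content in the libraries set these differences was not tested further.

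**Figure D3:**
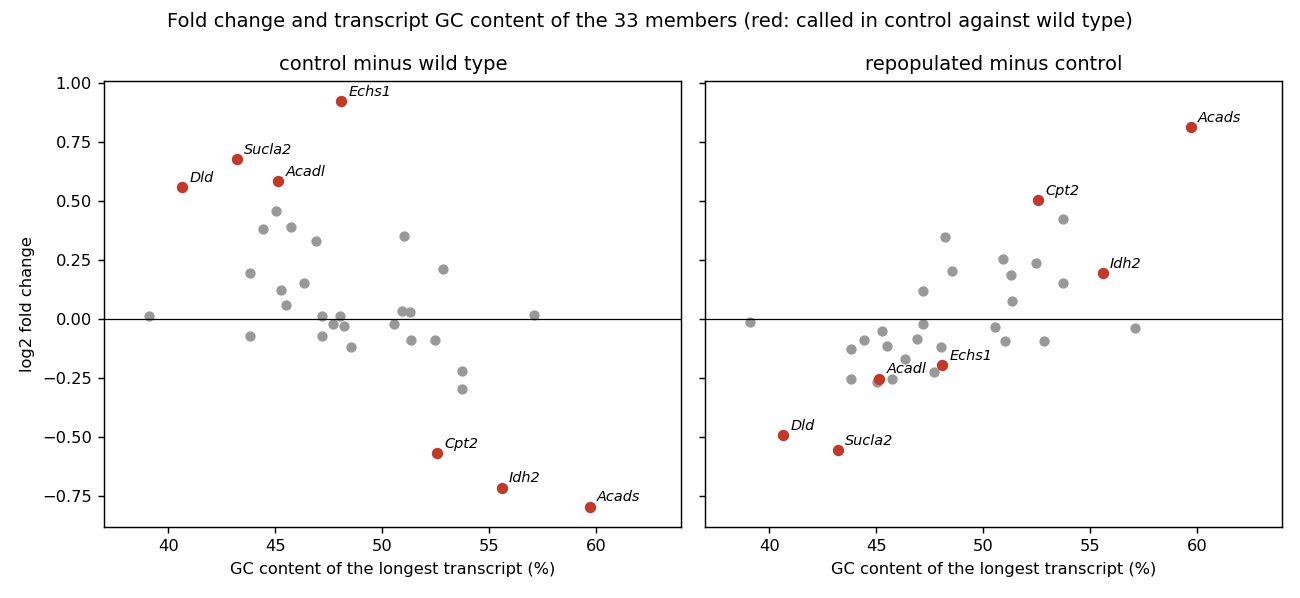
GC content of the longest transcript (x axis, percent) against log2 fold change (y axis) of the 33 members, control minus wild type on the left and repopulated minus control on the right; red points are the 7 members called in control against wild type. On the left the points fall from Dld, Sucla2 and Acadl to Acads, and on the right they rise from Dld and Sucla2 to Acads.

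Scaling of the library totals bore on the direction of the whole list. The median of all tested genes moved by -0.21 in control against wild type when totals were left unscaled, and the members' median moved from 0.02 to -0.19. Echs1 was then the 1 member called higher, and Acads, Idh2, Cpt2 and Acadvl were called lower. In that fit 24.6% of all genes tested were called in either direction. No called member changed direction. In the deposited TPM, which are scaled for length and total only, mean levels in control were lower than in wild type for 25 of 33 members, as they were for 76.7% of the genes tested. The members' TPM summed to 2668 to 2740 in wild type, 2250 to 2338 in control and 2370 to 2555 in repopulated libraries. In scaled CPM the sums overlapped, with 2146 to 2585 in wild type and 2507 to 2568 in control.

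Levels compared between genes per transcript length, in deposited TPM averaged over the 10 libraries, spanned from 7.02 for Dlat to 319 for Mdh2. Mdh2 was 329 ± 47.3, 267 ± 46.6 and 356 ± 19.1 TPM (SD) in wild type, control and repopulated libraries. Below it came Idh3g at 222, Etfb at 184, Pdhb at 171 and Mdh1 at 150 TPM. Cpt1a (11.8), Cpt2 (16.8), Hadh (17.2) and Acads (17.9) stood just above Dlat, so both carnitine enzymes were among the members with the lowest levels. Many neighbours in this order lay within each other's SD.

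**Figure D4:**
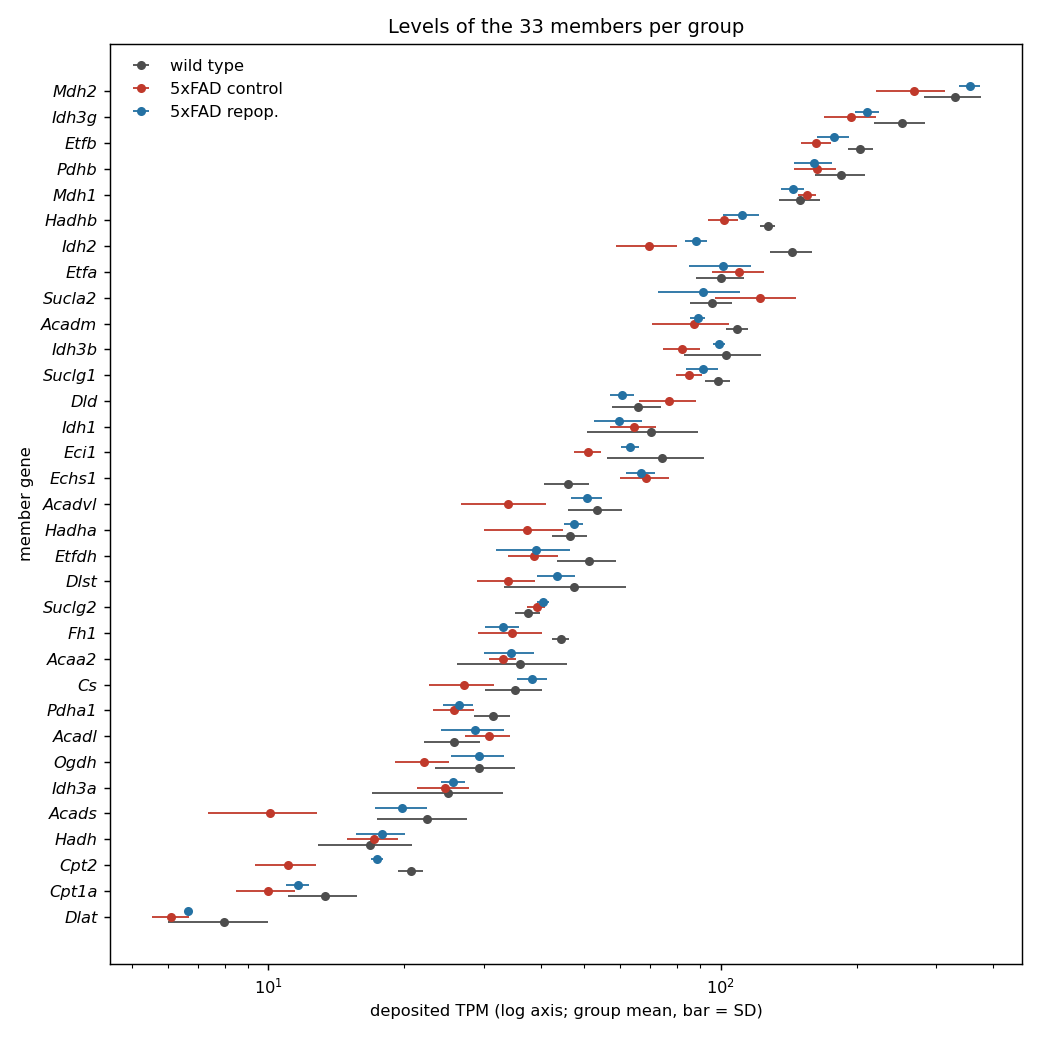
Deposited TPM (x axis, log scale) of the 33 members (y axis, ordered by the mean over the 10 libraries), as group means (points) with SD (bars) for wild type, control and repopulated libraries. Mdh2 is highest and Dlat lowest, and for Idh2 the wild-type point lies to the right of both 5xFAD points.

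Fatty acid genes outside the list were also counted. Of 22 genes of fatty acid activation and mitochondrial oxidation, 3 were called higher in control and none lower, beside 10.1% and 8.04% of all genes tested, and the median log2 fold change of the list was -0.07. Acot2, a mitochondrial acyl-CoA thioesterase, was 52.4 ± 8.49 CPM in wild type, 106 ± 34.7 in control and 48.4 ± 4.57 in repopulated libraries. It was 2.03-fold higher in control than in wild type (edgeR adjusted p = 0.00202, 20 of 20 alternatives) and 2.19-fold lower in repopulated than in control libraries (edgeR adjusted p = 0.0285). The latter was lost without control 1, control 2 or any repopulated library (edgeR adjusted p up to 0.22). Acsl4, an acyl-CoA synthetase that prefers polyunsaturated fatty acids, was 271 ± 53.5 CPM in wild type and 470 ± 184 in control (1.74-fold, edgeR adjusted p = 0.022), a call lost without wild-type 1, wild-type 4 or control 2 (up to 0.154). Hsd17b10, a matrix hydroxyacyl-CoA dehydrogenase, rose 1.58-fold (42.9 ± 4.86 to 67.6 ± 3.95 CPM, edgeR adjusted p = 0.00546), and GC and length adjustment left an edgeR adjusted p of 0.0966.

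Peroxisomes shorten very long-chain fatty acids, and of 14 peroxisomal genes 1 was called higher and 3 lower in control, beside the same 10.1% and 8.04%, with a median of -0.10. The transporter Abcd2 was 178 ± 12.7 CPM in wild type and 311 ± 7.60 in control (1.75-fold higher, edgeR adjusted p = 0.000669, 20 of 20 alternatives). The thioesterase Acot8 was 2.48-fold lower (edgeR adjusted p = 0.013), and its call was lost without control 1 or control 2 (up to 0.0589). Ehhadh, the peroxisomal bifunctional enzyme, was 9.77 ± 3.72 and 4.84 ± 0.22 CPM (2.02-fold lower, edgeR adjusted p = 0.0313), lost without wild-type 1 or any control (up to 0.1). Of 14 transcriptional regulators of mitochondrial oxidation 13 were tested. In control against wild type none was called higher and 1 lower, beside 10.1% and 8.04% of all genes (median of the list -0.13). The called gene was Esrra, an orphan nuclear receptor. It was 6.89 ± 1.89 CPM in wild type, 3.54 ± 0.64 in control and 5.59 ± 1.20 in repopulated libraries (1.94-fold lower in control, edgeR adjusted p = 0.0387). That call stood in 8 of 20 alternatives and was lost without wild-type 1, wild-type 4, any control or repopulated 2 or 3 (up to 0.143).

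Separation of groups and precision complete the account of the members. In control against wild type all controls lay above all wild types for 7 members and below for 3, where 14.1% and 12.6% of tested genes did so. Repopulated libraries lay wholly above control for 5 members and wholly below for 4, where 15.0% and 15.7% of tested genes did. They lay wholly above wild type for 2 and wholly below for 1, against 9.13% and 6.82% of tested genes. The 95% interval lay within 2-fold in either direction for all 26 uncalled members in control against wild type, and for 32 of 33 in repopulated against control. It lay within 1.5-fold for 17 and 19 of them. Unadjusted edgeR p-values were under 0.05 for 10 members in control against wild type, 6 in repopulated against control and 3 in repopulated against wild type, beside 31.8%, 18.53% and 15.1% of all genes tested. Wild-type 3, the library with the raised markers of other cells, was the highest wild-type library for 17 of 33 members, where it was so for 31.7% of all tested genes. Without it, 8 members were called higher and 3 lower in control, with Suclg2, Idh1, Hadh and Etfa added to the 7, beside 23.6% of all genes tested. Without control 2 only Echs1 and Idh2 were called, beside 11.3% of all genes tested. With wild-type 2, control 1 and control 3 left out, Dld, Sucla2 and Acads were called, beside 8.57% of the genes tested in that fit. It holds control 2 as its single control library, which is assumed to vary like the libraries of the other groups.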

How the data were processed

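Sorted hippocampal microglia of 3 groups (4, 3 and 3 libraries, grouped by the labels) were measured by Smart-Seq. The authors deposited 1 table with 3 values per gene and library. The deposited estimated counts (expected counts) are unnormalised, and 20.1% of those above 0 have a fractional part (tolerance 0.001). FPKM, scaled by the authors for length and depth per the file headers, entered no test. TPM, also scaled by the authors, were used only to compare levels between genes and for sums. HISAT, Bowtie2 and GRCm38.p6 are named in the submitters' processing notes. Which quantifier was used, and any version, is not given in the sources used here.

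Counts were rounded and tested with edgeR 4.0.16 (R 4.3.3, limma 3.58.1, statmod 1.5.0): TMM, filterByExpr, robust quasi-likelihood, 1 model of 3 groups, Benjamini-Hochberg adjustment over 12505 genes and a threshold of 0.05. Depth was 18501136 to 23286814 counts per library, and the biological coefficient of variation was 27.3%. Intervals are 95%. The script was tested on simulated data. Coordinates, promoters and identifiers came from RefSeq (19725 identifiers matched), and GC content and length from the longest GENCODE transcript. Alternatives included DESeq2 1.42.0, other filters and scalings and leaving out libraries. Unscaled totals and the GC and length adjustment were chosen after seeing the data.

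The members and lists were chosen with earlier results of these data known. Every member is accounted for. Values per library are given for called members and for Pdha1, Cs, Idh3a, Ogdh, Cpt1a and Acadvl, and called genes of the other lists are named, at most 4 per list and direction. Mdh1 was added to these after its values were seen. Some called genes of the other lists are counted but not reported here by name.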

Additional observations from a re-analysis of the deposited data

Results flagged for a closer look

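Cs, citrate synthase, was 43.1 CPM in wild-type 2, far below the 52.6 to 54.2 CPM of the other 3 wild-type libraries for the spread of that group. All 33 members were checked in this way in the 4 wild-type libraries, and chance alone gives such a gap in about 1 in 20 groups. The groups of 3 were not checked.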

How the results depend on the processing

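Over 20 alternatives no called member changed direction. In control against wild type 2265 genes were called, and 1315 to 2910 with 1 library left out in turn (fewest without control 1, most without wild-type 3); leaving out wild-type 2, control 1 and control 3, which had few Y-linked transcripts, gave 1202, with control 2 as the lone control, assumed to vary like the other groups. The 7 called members became 2 to 11 with 1 library left out, and 3 without those 3 libraries. In repopulated against control, 71 genes were called by edgeR, 694 by DESeq2, 166 with no filter, 125 with at least 5 CPM in 3 libraries, 630 with only the compared groups in the fit, 1 with a term for Y-linked transcripts, 388 without the libraries lacking them, 194 with unscaled totals and 0 to 328 with 1 library left out (0 without repopulated 2, 328 without wild-type 3). No member was called there by edgeR or with any 1 library left out, while 6 had an unadjusted p under 0.05. DESeq2 called 2 (Acads, Dld), beside 3.71% of the 18682 genes in that fit. That share takes in genes with few counts, which the filter of the main fit left out, so it is not matched to the members. The fit of only the compared groups called 1 (Acads), beside 5.26% of its 11973 genes. The fits held different numbers of genes, down to 9726 with the 5 CPM filter, so their counts are not on 1 scale. In repopulated against wild type 523 genes were called, 799 by DESeq2, 289 without the libraries lacking Y-linked transcripts and 284 to 688 with 1 library left out. The 2 called members became 1 without the libraries lacking Y-linked transcripts and 0 to 2 with 1 library left out. The cause of these changes was not tested. At this depth and number of libraries, the 95% interval reached past 1.5-fold for 9 of the 26 uncalled members in control against wild type.

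The replicate numbers did not pair the samples: deviations of same-numbered libraries correlated at -0.105 to 0.0705. With the replicate number as a block, 1464 genes (11.7% of those tested) and 2 members (Echs1, Idh2) were called in control against wild type. In repopulated against control 25 genes (0.200%) and 0 members were called. In repopulated against wild type 376 genes (3.01%) and 0 members were called.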
